A study of Homo sapiens with 15 samples.

Results

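Solute carriers are membrane proteins that move amino acids, sugars, ions, vitamins and other small molecules across the plasma membrane and the membranes of organelles, and the family is numbered by sequence and function. They set what a breast epithelial cell can take up and release, and several well-known members respond to steroid hormones in other tissues. This account concerns the 17 genes whose symbol in the array's annotation has the form SLC, family number, A and member number, out of 14361 genes with a named probe set. Each of the 17 has 1 probe set, so no choice among probe sets was needed. They are a small part of the superfamily, and most carry recent names of proteins long called MFSD, PQLC or TMEM. A further 13 carriers listed to be named whatever their result, SLC2A1 and SLC7A5 among them, had no named probe set in that annotation. They and the rest of the superfamily were not analysed here.

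ZR-75-1 is a human line of luminal breast cancer that expresses the estrogen receptor. The cells, kept in RPMI-1640 medium with fetal bovine serum, were exposed for 6 h to 10 nM of MPA, PROG, DHT or DEX, or to 0.1% ethanol as the vehicle, and their total RNA was hybridised to 15 Affymetrix arrays. There were 3 arrays in each of the 5 groups. By the usual reading of the labels' abbreviations, MPA is medroxyprogesterone acetate, a synthetic progestin, PROG is progesterone, DHT is dihydrotestosterone, an androgen, and DEX is dexamethasone, a synthetic glucocorticoid. The vehicle arrays are also labelled untreated, and no label names the solvent of the compounds. All groups come from 1 cell line, and whether replicate arrays stand for separate cultures is not stated, so that each p-value reflects array-to-array spread that may be technical. Serum holds steroids of its own, and no label gives another medium for any group.

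The arrays had medians of 3.69 to 3.73 on the deposited log2 scale, and replicate arrays correlated with each other at r = 0.997 to 0.998. All 7 measured luminal epithelial markers, among them GATA3, EPCAM, KRT18 and ESR1, lay above the array medians with means of 5.87 to 12.1. The basal keratins KRT5 (2.97) and KRT14 (2.96) and the endothelial marker VWF (3.16) lay below them. Of the fibroblast markers DCN (3.10) lay below and LUM (4.06) just above, and CD68, listed as a blood marker but also a lysosomal protein, was at 7.71.

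No solute carrier gene changed by the threshold used, a limma adjusted p under 0.05 over all 14841 named probe sets, with any of the 4 compounds. With MPA 0 of the 17 were called, where 5.93% of all named probe sets were called. With PROG it was 0 of 17 beside 2.82%, with DHT 0 of 17 beside 0.889%, and with DEX 0 of 17 beside 1.11%. At these rates few or no calls would be found among 17 genes of any kind, so a count of 0 does not set the carriers apart. At an unadjusted limma p under 0.05 there was 1 carrier with MPA (17.4% of all probe sets), 0 with PROG (11.6%), 0 with DHT (9.90%) and 2 with DEX (10.4%). A moderated F test over the 4 compounds together called 0 of 17 carriers, beside 5.13% of all named probe sets.

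The differences from vehicle were small in both directions. They ran from -0.17 to 0.17 on the log2 scale, and the 95% intervals of all 68 of them, 17 genes with 4 compounds, lay between -0.35 and 0.37. Each of these intervals left out a change of 1.5-fold in either direction. Those intervals hold for each gene singly, not for all 17 at once. Such a narrow interval was no feature of carriers, since 96.6% of all named probe sets with MPA and 98.5% with DEX left out 1.5-fold in the same way. The median absolute difference of the carriers was 0.057 with MPA, where that of all named probe sets was 0.067. With PROG these values were 0.047 and 0.057, with DHT 0.057 and 0.053, and with DEX 0.057 and 0.057. The same arrays registered large responses elsewhere. PER1, a circadian clock repressor, rose by 1.06 ± 0.10 (limma SE, n = 3 arrays per group, adjusted p = 1.07e-04) with DHT and by 2.14 ± 0.10 (adjusted p = 7.54e-08) with DEX.

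**Figure D1:**
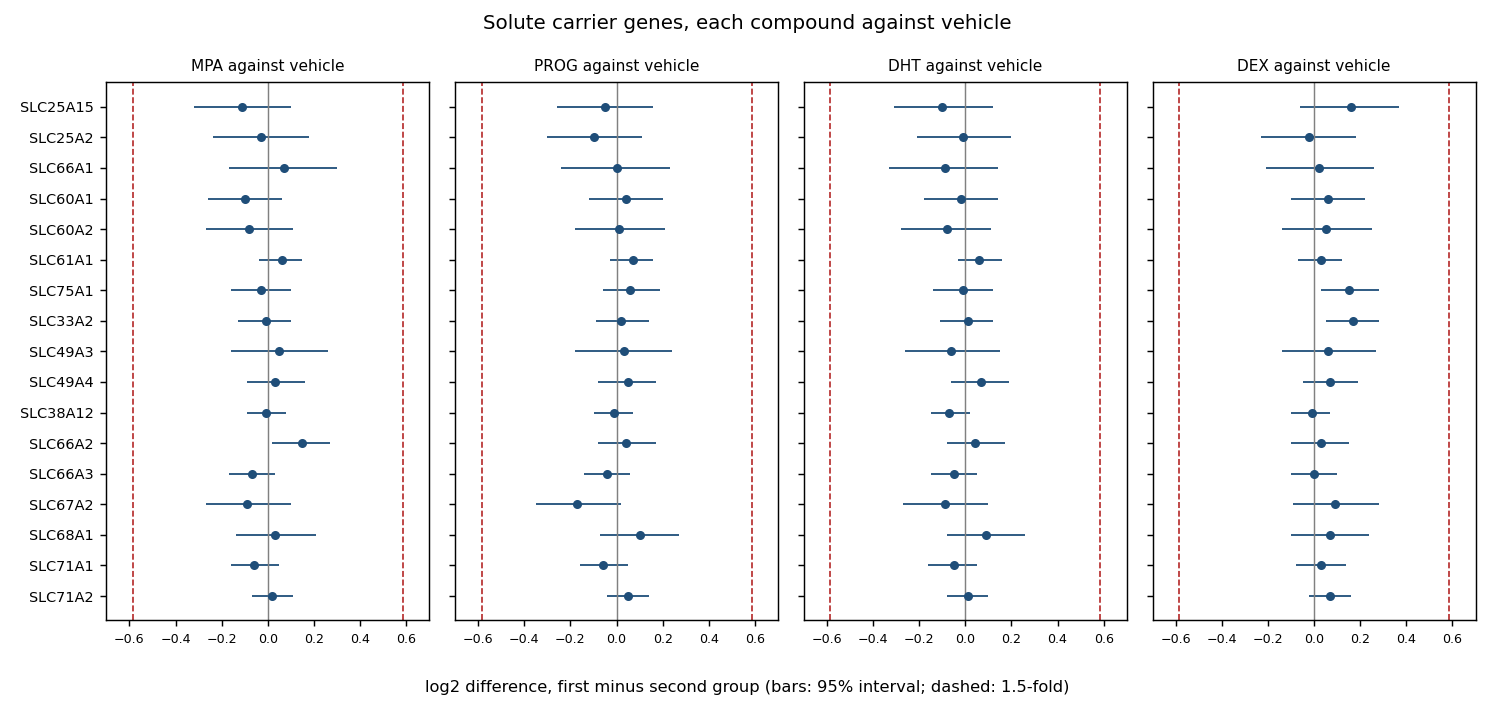
Log2 difference of each of the 17 solute carrier genes from vehicle, 1 panel per compound. Points are limma estimates from 3 arrays per group, bars are 95% intervals, and dashed lines mark 1.5-fold. The points lie between -0.17 and 0.17 and no bar reaches a dashed line.

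**Figure D2:**
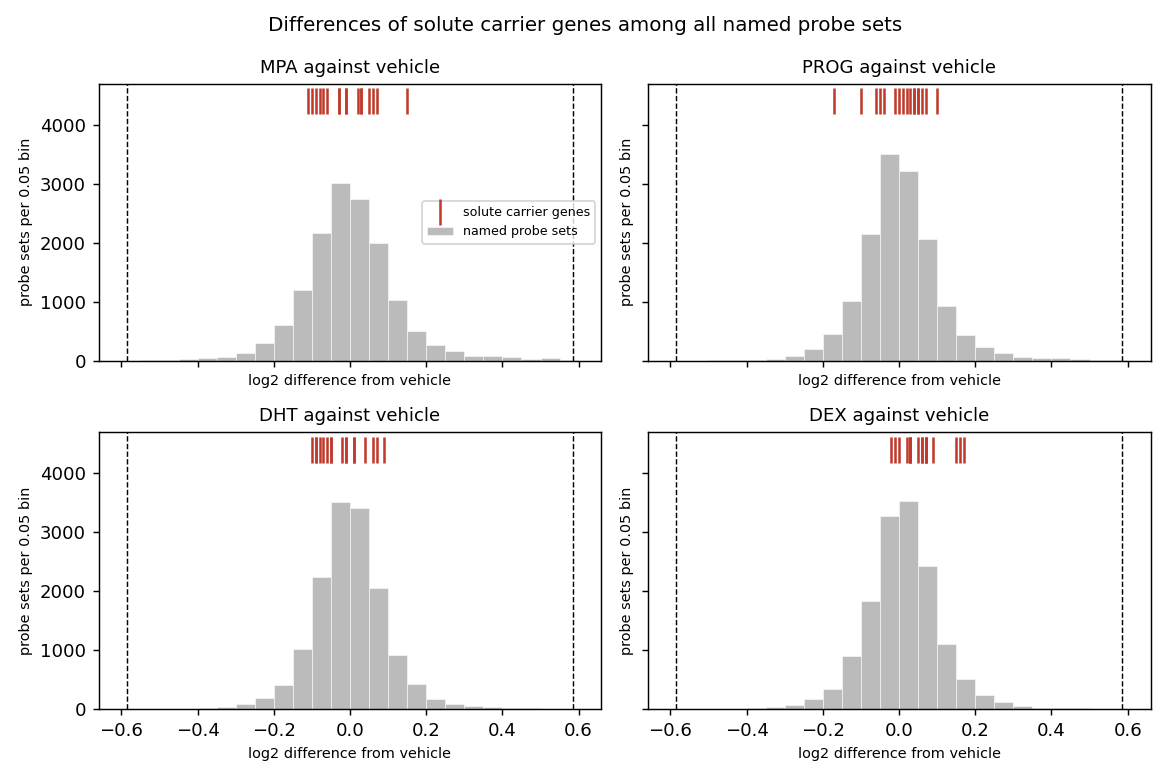
Number of named probe sets per bin of log2 difference from vehicle (grey bars, 0.05 wide, range drawn from -0.6 to 0.6), with the 17 solute carrier genes as red ticks above. The ticks lie within the bulk of the grey bars with each compound, and with DEX most of them lie to the right of 0.

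The first group, of 3 genes, holds carriers of basic amino acids. SLC25A15 exchanges ornithine across the inner mitochondrial membrane for the urea cycle, and its loss causes hyperornithinemia with hyperammonemia. Its log2 levels were 7.02, 7.22 and 7.01 with vehicle, 7.01, 7.07 and 6.84 with MPA, and 7.03, 7.0 and 7.07 with PROG. With DHT they were 7.06, 6.74 and 7.16, and with DEX 7.32, 7.29 and 7.11. The DEX arrays overlapped the vehicle arrays through DEX 3 and vehicle 2, and DHT 2 gave the lowest value of all 15. The DEX difference was 0.16 ± 0.099 (limma SE, n = 3, adjusted p = 0.646), and MPA, PROG and DHT gave -0.11, -0.05 and -0.10. The MPA, PROG and DHT values rest on single arrays. The DHT value was 0.03 without DHT 2 and -0.03 without vehicle 2. The MPA value was -0.04 without either MPA 3 or vehicle 2, and the PROG value was 0.02 without vehicle 2. The DEX value was 0.12 to 0.23 with any 1 vehicle or DEX array left out.

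SLC66A1 exports cationic amino acids from lysosomes. Its levels ran from 5.88 in DHT 1 to 6.46 in MPA 3, with a within-group SD of 0.148, larger than in 89.7% of named probe sets. The differences from vehicle were 0.07 with MPA, 0.00 with PROG, -0.09 with DHT and 0.02 with DEX, each with an SE of 0.11, all inside that spread. SLC25A2, a second mitochondrial ornithine carrier, had a mean of 3.41 and lay under the array medians in all 5 groups. At such a level its values are no evidence for or against a response. Of the 3 genes in this group, 0 were called with any compound.

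SLC60A2, also called NaGLT1 for sodium-dependent glucose transport, and its relative SLC60A1 stand for the sugar transporter families. SLC60A2 ran from 7.02 in MPA 3 to 7.44 in PROG 1, and its differences from vehicle were between -0.08 and 0.05. SLC60A1 had a mean of 3.75, at the array medians, so a change could be hidden. Its values were 3.70, 3.76 and 3.82 with vehicle and 3.76, 3.73 and 3.48 with MPA, and MPA 3 was the lowest of the 15. The 15 carriers with means above the array medians in all 5 groups exclude these dim cases, SLC25A2 and SLC60A1, and 60 of their 60 intervals against vehicle left out 1.5-fold.

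SLC61A1, a molybdate transporter, was among the steadiest members. Its 15 values lay between 6.94 and 7.10 and its within-group SD was 0.046, and 11.4% of named probe sets had a smaller one. The differences from vehicle were 0.06 with MPA, 0.07 with PROG, 0.06 with DHT and 0.03 with DEX, with an SE of 0.045 each.

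SLC75A1, named TETRAN for its likeness to tetracycline transporters, moves organic anions. Its levels were 8.55, 8.66 and 8.69 with vehicle, 8.57, 8.67 and 8.57 with MPA, and 8.61, 8.71 and 8.77 with PROG. They were 8.62, 8.58 and 8.67 with DHT and 8.68, 8.85 and 8.83 with DEX. DEX 2 and DEX 3 lay above all 3 vehicle arrays, while DEX 1 lay just under vehicle 3. The DEX difference of 0.15 ± 0.059 was 1.11-fold (95% interval 1.02 to 1.22, limma adjusted p = 0.363), which is not a call. Over all alternatives this difference was 0.11 to 0.21, with a limma adjusted p of 0.187 to 0.639. With MPA, PROG and DHT the differences were -0.03, 0.06 and -0.01.

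A group of 3 members belongs to families that carry acetyl-CoA, heme or vitamins. SLC33A2 is a relative of the acetyl-CoA transporter of the endoplasmic reticulum. Its levels were 8.33, 8.28 and 8.35 with vehicle, 8.24, 8.33 and 8.35 with MPA, and 8.28, 8.36 and 8.39 with PROG. With DHT they were 8.30, 8.33 and 8.35, and with DEX 8.39, 8.60 and 8.47. All 3 DEX arrays lay above all 3 vehicle arrays, and DEX 1 was as high as PROG 3. The DEX difference of 0.17 ± 0.054 was 1.12-fold (95% interval 1.04 to 1.22), and a limma adjusted p = 0.243. The arrays of DEX and vehicle did not overlap for 2 of the 17 carriers, SLC33A2 and SLC71A2, beside 13.6% of all named probe sets. Without DEX 2 the SLC33A2 difference was 0.11, and over all alternatives its adjusted p was 0.113 to 0.570.

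SLC49A4, a lysosomal membrane protein first found at a breakpoint in renal cancer, lay between 9.97 and 10.24, with the lowest value in vehicle 1. Its differences from vehicle were 0.03, 0.05, 0.07 and 0.07 with MPA, PROG, DHT and DEX, each with an SE of 0.058. SLC49A3, of the same family, lay between 5.61 and 6.05, and the highest value was that of DEX 3. Its differences were between -0.06 and 0.06.

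**Figure D3:**
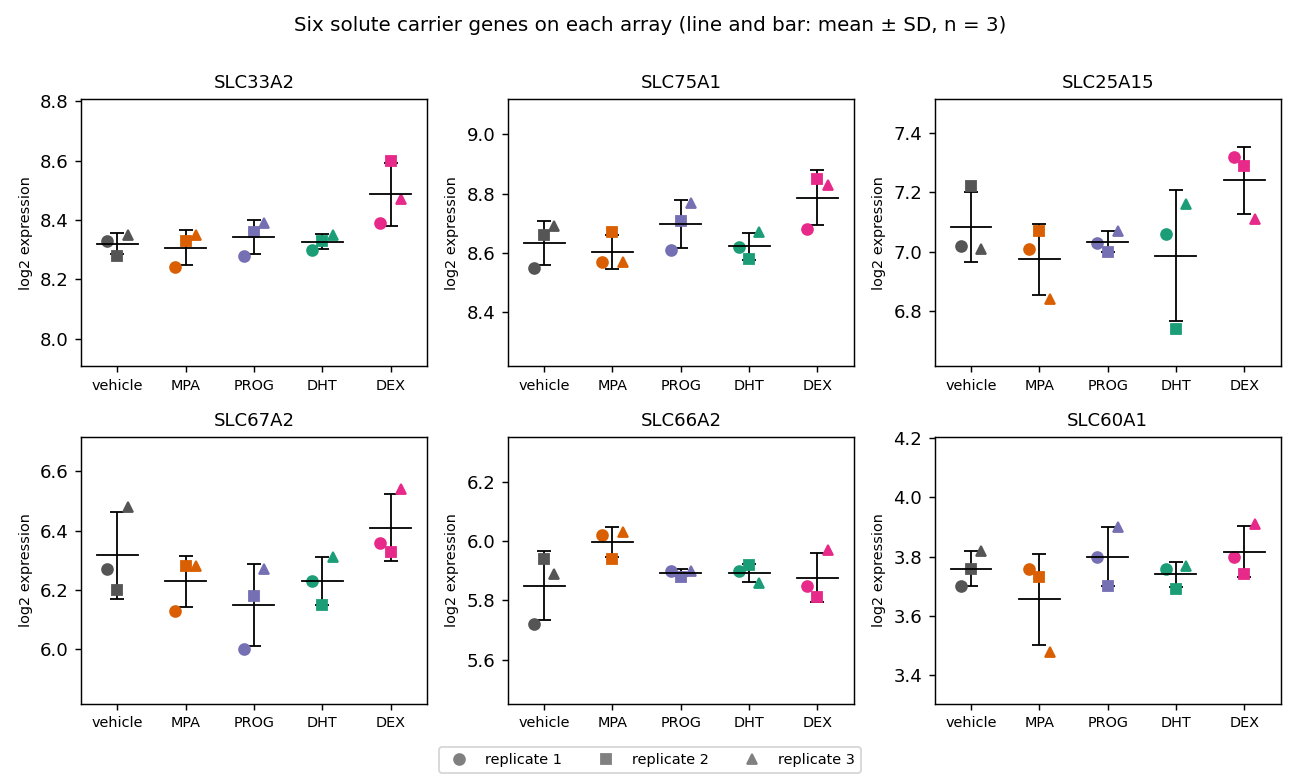
Log2 expression on each of the 15 arrays for the 6 solute carrier genes with an unadjusted limma p under 0.05 in any of the 10 comparisons. Marker shapes give the replicate number, horizontal lines the group mean and bars the SD (n = 3), and each panel spans the same range of 0.9. The DEX mean is the highest of the 5 groups for SLC33A2, SLC75A1, SLC25A15, SLC67A2 and SLC60A1, and the MPA mean is the highest for SLC66A2. Each gene was picked through comparisons in which that same group was the higher, so these rankings follow in large part from the selection.

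The other 7 members have no substrate assigned here. SLC66A2 is a relative of the lysosomal amino acid exporter SLC66A1. Its levels were 5.72, 5.94 and 5.89 with vehicle and 6.02, 5.94 and 6.03 with MPA, and those of the other groups ran from 5.81 to 5.97. MPA 1 and MPA 3 were the highest of the 15, and MPA 2 equalled vehicle 2. The MPA difference was 0.15 ± 0.058, or 1.11-fold (95% interval 1.02 to 1.21, limma adjusted p = 0.190). Without vehicle 1, the lowest array, the difference was 0.08 and the limma adjusted p was 0.509.

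SLC67A2 is a transporter of the major facilitator superfamily. Its levels were 6.27, 6.2 and 6.48 with vehicle, 6.00, 6.18 and 6.27 with PROG, and 6.36, 6.33 and 6.54 with DEX. With MPA they were 6.13, 6.28 and 6.28, and with DHT 6.23, 6.15 and 6.31. PROG 1 was the lowest of the 15 arrays, and the groups overlapped with vehicle. The difference from vehicle was -0.17 ± 0.087 with PROG (limma adjusted p = 0.516) and 0.09 with DEX. It was -0.09 with MPA and also -0.09 with DHT.

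The remaining 5 stayed close to their vehicle levels. SLC38A12, placed by sequence with sodium-coupled amino acid transporters, lay between 8.67 and 8.83, with a within-group SD of 0.0366, and 4.49% of named probe sets had a smaller one. SLC66A3 lay between 10.18 and 10.35. SLC71A1 and SLC71A2, a pair once called hippocampus-abundant transcripts, lay between 10.00 and 10.24 and between 10.90 and 11.06. The 3 SLC71A1 arrays with PROG lay below those with vehicle, by a mean difference of -0.06 ± 0.049 (limma adjusted p = 0.741), the 1 carrier without overlap there, beside 15.5% of all named probe sets. The 3 SLC71A2 arrays with DEX lay above those with vehicle, as stated above, by 0.07 ± 0.042 (limma adjusted p = 0.62). SLC68A1, at 5.25 to 5.61, gave differences from vehicle of 0.03 to 0.10, the largest with PROG.

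The largest number of carriers on 1 side of vehicle was found with DEX. Of the 17 members 14 had a mean above vehicle, as had 54.1% of all named probe sets, with a median difference of 0.057 beside 0.01 over all named probe sets. With MPA 7 were above (47.9% of all), with PROG 10 (48.7%) and with DHT 6 (48.5%). None of these genes passed the threshold, and the 4 comparisons share the vehicle arrays.

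The compounds were then set against each other at the same dose and time, in 6 pairs with 17 genes each. No carrier was called in any pair. The background was 0.290% of named probe sets for MPA against PROG, 3.51% for MPA against DHT, 4.06% for MPA against DEX, 1.71% for PROG against DHT, 1.42% for PROG against DEX and 0.654% for DHT against DEX. At an unadjusted limma p under 0.05 the counts were 0, 0, 4, 0, 2 and 3 of 17 in that order, where 8.52%, 14.4%, 15.3%, 9.33%, 9.89% and 9.57% of all named probe sets reached it. The 102 differences lay between -0.27 and 0.16, and each 95% interval left out 1.5-fold.

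MPA and PROG share the progesterone skeleton, to which MPA adds a methyl and an acetoxy group. Their carriers differed by -0.14 to 0.10, with intervals between -0.30 and 0.30. The smallest p was that of the dim SLC60A1 (-0.14 ± 0.074, limma adjusted p = 0.643). That a p misses the threshold does not show that the pair acts alike. For the 15 carriers above the array medians, a difference of 1.5-fold lay outside all 90 intervals of the 6 pairs, those of MPA against PROG included.

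The largest contrasts between compounds involved DEX. SLC33A2 was lower with MPA than with DEX by 0.18 ± 0.054 (log2 difference -0.18, 95% interval -0.30 to -0.06, limma adjusted p = 0.0928), and the arrays of the 2 groups did not overlap. This value is close to the threshold. It reached an adjusted p of 0.0401 without DEX 1, and 0.0464 with an intensity trend in the prior variance, while without DEX 2 it was 0.313. SLC75A1 differed by -0.18 ± 0.059 (adjusted p = 0.124) and SLC25A15 by -0.27 ± 0.099 (adjusted p = 0.195) between MPA and DEX, also without overlap. In all, 5 carriers did not overlap between these groups, each lower with MPA, beside 17.6% of all named probe sets in either direction. For PROG against DEX and DHT against DEX it was 4 each (14% and 12.8% of all), 3 lower and 1 higher. For MPA against PROG and MPA against DHT it was 1 each (11.7% and 16.3%), and for PROG against DHT 0 (12.8%). Against vehicle it was 0 with MPA (19.1%) and 0 with DHT (12.7%). SLC67A2 was lower with PROG than with DEX by a log2 difference of -0.26 ± 0.087 (limma adjusted p = 0.246). Its differences from DEX were -0.18 ± 0.087 with MPA (limma adjusted p = 0.348) and -0.18 ± 0.087 with DHT (limma adjusted p = 0.544). The SLC67A2 arrays did not overlap in any of these pairs, so the lower level was not particular to PROG. SLC33A2 (-0.16 ± 0.054, adjusted p = 0.307), SLC75A1 (-0.16 ± 0.059, adjusted p = 0.358) and SLC25A15 (-0.25 ± 0.099, adjusted p = 0.406) gave the smallest p-values of DHT against DEX. Without DHT 2 the SLC25A15 difference was -0.13, and without DEX 2 that of SLC33A2 was -0.10. All these comparisons use the same 3 DEX arrays.

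**Figure D4:**
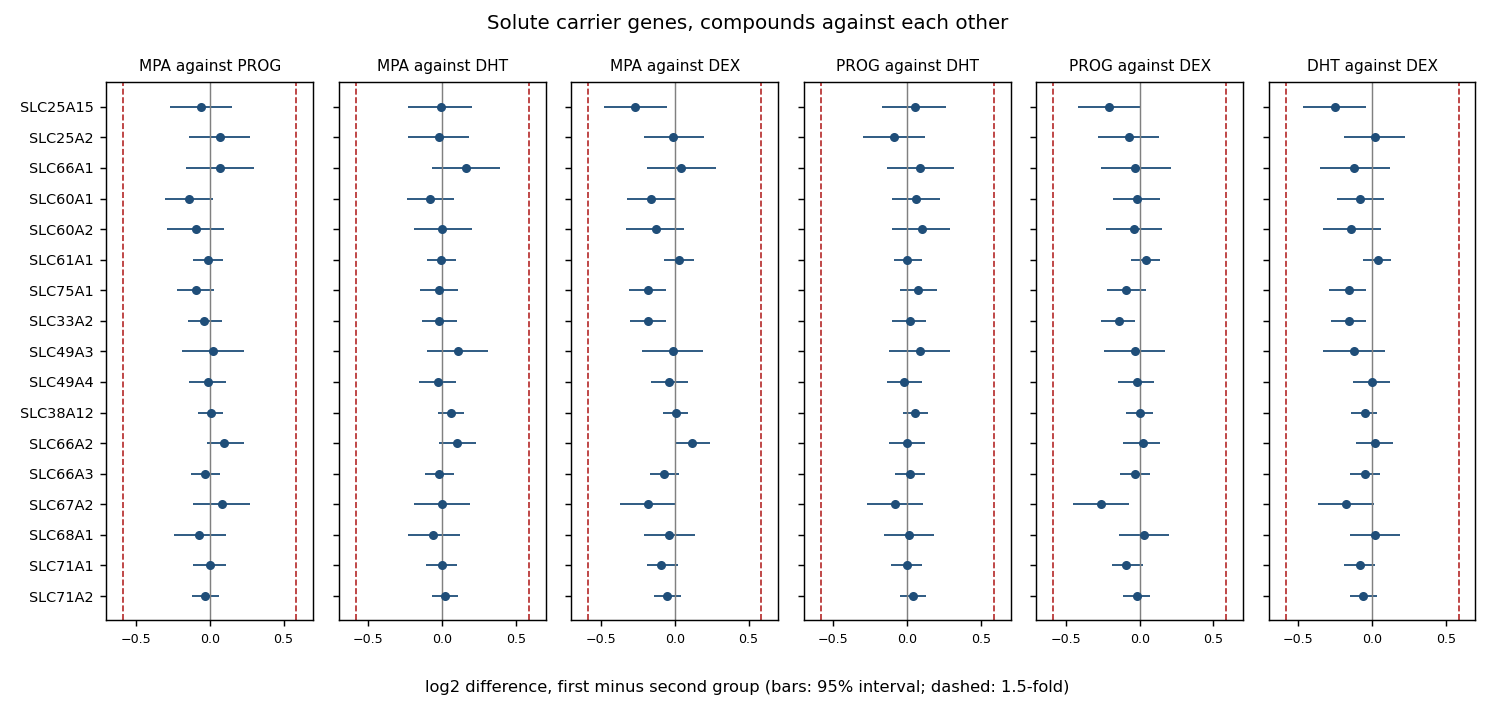
Log2 difference of each of the 17 solute carrier genes between compounds, first minus second, 1 panel per pair. Points are limma estimates from 3 arrays per group, bars are 95% intervals and dashed lines mark 1.5-fold. The points farthest from 0 are SLC25A15 (-0.27) in MPA against DEX and SLC67A2 (-0.26) in PROG against DEX.

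Transport proteins outside the naming pattern were taken from a list of partners, of which 27 had a named probe set. The list was chosen with earlier results of these data known. Its counts therefore do not show whether such genes respond more often than others. With MPA 2 of the 27 rose and 2 fell, with PROG 2 rose, with DHT 1 rose, and with DEX 0 passed the threshold by limma. Over all named probe sets the shares called were 5.93% with MPA, 2.82% with PROG, 0.889% with DHT and 1.11% with DEX. The water and glycerol channel AQP3 rose by 1.51 ± 0.11 with MPA (limma adjusted p = 4.00e-07), 0.96 ± 0.11 with PROG (adjusted p = 7.82e-05) and 1.11 ± 0.11 with DHT (adjusted p = 1.07e-04), and was at 0.38 ± 0.11 with DEX (adjusted p = 0.162). It was the 1 aquaporin called of 10 measured. STOM, stomatin, a membrane protein that binds the glucose transporter of red cells, rose by 0.51 ± 0.051 with MPA (adjusted p = 1.28e-05) and by 0.45 ± 0.051 with PROG (adjusted p = 7.82e-05). EMB, embigin, an escort protein of lactate transporters, fell with MPA (-0.29 ± 0.076, adjusted p = 0.0336), as did CLTRN, collectrin, which traffics amino acid transporters to the membrane (-0.36 ± 0.090, adjusted p = 0.0263). Without a call, CLTRN was also lower with PROG (-0.26), DHT (-0.25) and DEX (-0.17). EMB was at -0.15 with PROG, -0.03 with DHT and -0.15 with DEX, also not called. Neither gene was called between MPA and any other compound. BSG, the other escort protein of lactate transporters, and the pyruvate carrier subunits MPC1 and MPC2 were not called. The 3 measured solute carriers of other letter series, SLC35D4, SLC35F6 and SLC9D1, were not called with any compound.

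The DNA before the start of these genes was examined because the receptors of all 4 compounds bind the same palindromic element. RefSeq promoter windows of 300 bases, 250 before to 50 after the start in GRCh38.p14, were matched by symbol for 14 of the 17 members, with 15 windows in all. Searched for were the single site AGAACA on both strands, the full palindrome of AGAACA, a spacer of 3 bases and TGTTCT, and a relaxed palindrome of GNACA, the same spacer and TGTNC. None of the 15 windows held any of them. The single site, which is also part of the full palindrome, was present in 14.8% of all 35116 windows, the relaxed palindrome in 0.390% and the full one in 0.00285%. The absence says only that these letters are not in these windows. The members' windows were rich in G and C, with a median of 71.3% beside 58.7% for all windows, and held a median of 36 CG dinucleotides beside 14. The last 100 bases before the start are shown for the 3 members with a window and an unadjusted p under 0.05 that are well above the array medians, with each CG dinucleotide in capitals. They are at chr13:40789511-40789610 on the plus strand, chr2:102736889-102736988 on the minus strand and chr4:2934826-2934925 on the minus strand, in this order. SLC75A1 has another window, at chr4:2934138-2934437, which is not shown.
SLC25A15: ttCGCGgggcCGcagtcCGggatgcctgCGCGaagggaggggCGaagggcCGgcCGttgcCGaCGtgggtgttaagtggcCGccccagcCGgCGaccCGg
SLC67A2: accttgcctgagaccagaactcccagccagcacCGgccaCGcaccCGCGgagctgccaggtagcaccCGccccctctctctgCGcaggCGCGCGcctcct
SLC75A1: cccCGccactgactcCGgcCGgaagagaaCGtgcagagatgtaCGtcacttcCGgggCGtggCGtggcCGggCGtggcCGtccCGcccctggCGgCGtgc
The stretches hold 15, 9 and 14 CG dinucleotides.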

How the data were processed

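Biotin-labelled cDNA from total RNA was hybridised to 15 Affymetrix arrays (labels' protocols). The deposited table holds log2 values with 2 decimals for 34878 probe sets, made by the authors with Partek and RMA, per the submitters' processing notes, with no version, setting or build stated. RMA brings arrays to a like distribution, which removes a change common to most genes and can compress changes of dim probe sets.

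The 14841 probe sets with 1 gene symbol were fitted as deposited in R 4.3.3 by limma 3.58.1 (lmFit, eBayes, 5 group means, 10 residual degrees of freedom, prior of 3.81). All 10 contrasts were tested 2-sided, with Benjamini-Hochberg adjustment over all 14841 and a threshold of 0.05. The fit was tested on simulated data. Groups and replicates came from the titles. All 17 members are described; further genes come from the partner and marker lists. Members and lists were chosen with earlier results of these data known, and substrate groups after the members were known. Alternatives covered the samples fitted, a replicate block, variance prior, scaling, filtering, the probe sets adjusted over, and each array left out.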

Additional observations from a re-analysis of the deposited data

How the results depend on the processing

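The number of called solute carrier genes was 0 in each direction in all 10 comparisons, and it was still 0 in 298 of 300 counts under the alternatives. Both exceptions were 1 gene, SLC33A2, lower with MPA than with DEX. It was called with an intensity trend in the prior variance (count of 1, adjusted p = 0.0464) and without DEX 1 (adjusted p = 0.0401), so leaving out 1 array gave counts of 0 to 1 there. The other settings did not call it, with adjusted p of up to 0.313 without DEX 2. No member value against vehicle was called under any alternative. Over all named probe sets replicate numbers showed no pairing, with correlations of deviations from -0.05 to 0.07 over 30 same-numbered pairs. Arrays with different numbers gave -0.09 to 0.07. Such a correlation does not exclude pairing in a single gene. With the replicate block 0 members were called, and the smallest adjusted p was 0.0701 for SLC67A2, PROG against DEX. Without the block that limma adjusted p was 0.246. Over all alternatives it ran from 0.0701 to 0.59, the highest without PROG 1, and the difference from -0.32 to -0.19. The 3 arrays per group limit the precision, and the dim SLC25A2 and SLC60A1 cannot be read for small changes.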
